A study of Mus musculus with 16 samples.

Results

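Apolipoproteins are the proteins that coat the lipid particles of plasma, and 10 of their genes were followed here through liver tumours of mice that lack Axin1 in hepatocytes. The genes were taken by symbol from a fixed list, Apoa1, Apoa2, Apoa4, Apoa5, Apob, Apoc1, Apoc2, Apoc3, Apoe and Apoh. Each had 1 probe set, so 10 of 10 were found among the 23279 genes with a symbol on the array. Expression values are on a log2 scale, so a difference of 1 is a 2-fold change in signal.

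The study measured total RNA of liver from male mice aged 16 months on 16 one-colour arrays. Control liver came from 3 mice without the deletion (mice 10, 11 and 12); the sources used here do not state their Cre and floxed alleles or the strain. The deleted mice were Axin1 fl/fl animals with the Alfp-Cre transgene, whose Cre recombinase is made in embryonic hepatocytes; which other liver cells keep Axin1 is not stated. Their tissue was non-tumoral liver next to tumours from 5 mice (121, 123, 124, 1931 and 81) and 8 tumours from 6 mice (90, 93, 81, 123, 124 and 121). Mouse 121 gave 3 tumours, named here by their label as the unnumbered tumour, tumour 2 and tumour 3, which were averaged for every comparison between groups. Mice 121, 123, 124 and 81 gave both tissues.

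The liver makes most circulating apolipoproteins. Apob is the scaffold on which very low density lipoproteins are built and secreted. Apoa1 and Apoa2 form high density lipoproteins, which carry cholesterol back to the liver. Apoc2 is the cofactor without which lipoprotein lipase cannot hydrolyse triglyceride in the capillaries, Apoa5 enhances that hydrolysis, and Apoc1 and Apoc3 slow the clearance of triglyceride-rich particles. Apoe binds the hepatic receptors that take up remnants, and it is also made by macrophages. Apoa4 is an exchangeable protein of the intestine that mouse liver also makes, and Apoh, or beta-2 glycoprotein I, is a phospholipid-binding plasma protein.

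Apoa1, Apoc3, Apoa4 and Apoa5 lie next to one another in this order on mouse chromosome 9. Apoc1 and Apoe are neighbours on chromosome 7, with Apoc2 beyond Apoc4. The 250 bases before the annotated start were read for the 3 genes whose tumour values stood farthest from adjacent liver, from RefSeq windows of the GRCm38.p6 build, each on the strand of the gene: Apoa4 at chr9:46240594-46240843 (plus strand), Apoa5 at chr9:46268358-46268607 (plus strand; the first of 2 annotated starts) and Apoc2 at chr7:19677942-19678191 (minus strand). Capitals mark the motifs found in them.

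Apoa4: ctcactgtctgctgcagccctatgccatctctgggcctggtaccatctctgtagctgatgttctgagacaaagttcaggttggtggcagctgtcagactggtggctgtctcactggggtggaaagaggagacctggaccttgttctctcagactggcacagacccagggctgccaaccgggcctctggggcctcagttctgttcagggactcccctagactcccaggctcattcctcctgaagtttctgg

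Apoa5: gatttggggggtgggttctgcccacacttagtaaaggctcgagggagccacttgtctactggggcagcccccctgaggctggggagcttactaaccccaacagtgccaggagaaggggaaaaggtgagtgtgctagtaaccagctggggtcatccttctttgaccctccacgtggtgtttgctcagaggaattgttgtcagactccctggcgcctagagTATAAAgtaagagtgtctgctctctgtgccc

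Apoc2: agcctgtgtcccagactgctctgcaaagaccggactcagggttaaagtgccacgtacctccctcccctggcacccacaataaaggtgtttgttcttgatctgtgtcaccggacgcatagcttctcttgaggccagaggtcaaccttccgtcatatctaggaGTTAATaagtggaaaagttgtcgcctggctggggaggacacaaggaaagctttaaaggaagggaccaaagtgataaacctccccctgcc

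The windows of the neighbours Apoa4 and Apoa5 differed in their motifs, and a link to their values in tumours was not tested. A set of 6 short motifs was searched on both strands. The Apoa5 window held TATAAA, a core promoter motif, with its first base at -31 from the start, which 13% of 27025 genes hold in their first window, and the Apoa4 window held none of the motifs. The Apoc2 window held GTTAAT, an HNF1-type motif, with its first base at -89, as do 6.52% of genes. Over the 8 of 10 genes with a window, TATAAA was in 3, TGTTTAC (forkhead) in 2, CCAAT in 1, while the HNF4-type motif CAAAGTCCA was found in 0 and its variant, spelled CAAAGGTCA, likewise in 0. All genes hold these in 13%, 3.09%, 34.5%, 0.381% and 0.407% of first windows. No matches overlapped in these windows, and a match is a description of letters, not a site.

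Array medians lay between 4.37 and 4.5 and the highest value on an array between 12.63 and 12.85. All 13 arrays from deleted mice had less Axin1 signal than the lowest control (5.07 to 5.48 in controls, 3.9 to 4.81 in deleted mice; limma adjusted p = 0.255 for adjacent liver and 0.102 for tumours, neither past the threshold). Which exons its probe set covers is not stated. Hepatocyte markers were high on every array (mean of 5 markers 12.06 to 12.44). Control 10 stood apart in macrophage markers, whose mean over 6 genes was 8.92 there and 5.19 to 7.22 on the other 15 arrays. Mean neutrophil markers (2 genes) were also highest there, at 9.44 against 4.16 to 7.25 elsewhere. In bulk tissue, fewer cells of a type and less RNA per cell cannot be told apart.

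The first comparison set tumours against the liver around them. Apoa4 and Apoc2 were higher and Apoa5 was lower in tumours, Apoh was slightly lower, and the other 6 genes differed by less than 0.1 on the log2 scale. None of the 10 passed the threshold of an adjusted p under 0.05 over all genes (limma, 0 of 10 called, against 36 of 23279 genes, 0.155%). At an unadjusted p under 0.05 there were 4 of 10, where all genes had 15.3%. The median difference was -0.06 over the 10 genes and -0.03 over all genes. A random block for the mouse, over all 8 tumours, gave 206 called genes, and pairing tissues within the 4 mice that gave both (a fixed block) gave 0 (3145 at an unadjusted p under 0.05). Of the 10 apolipoprotein genes 0 were called under either.

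**Figure D1:**
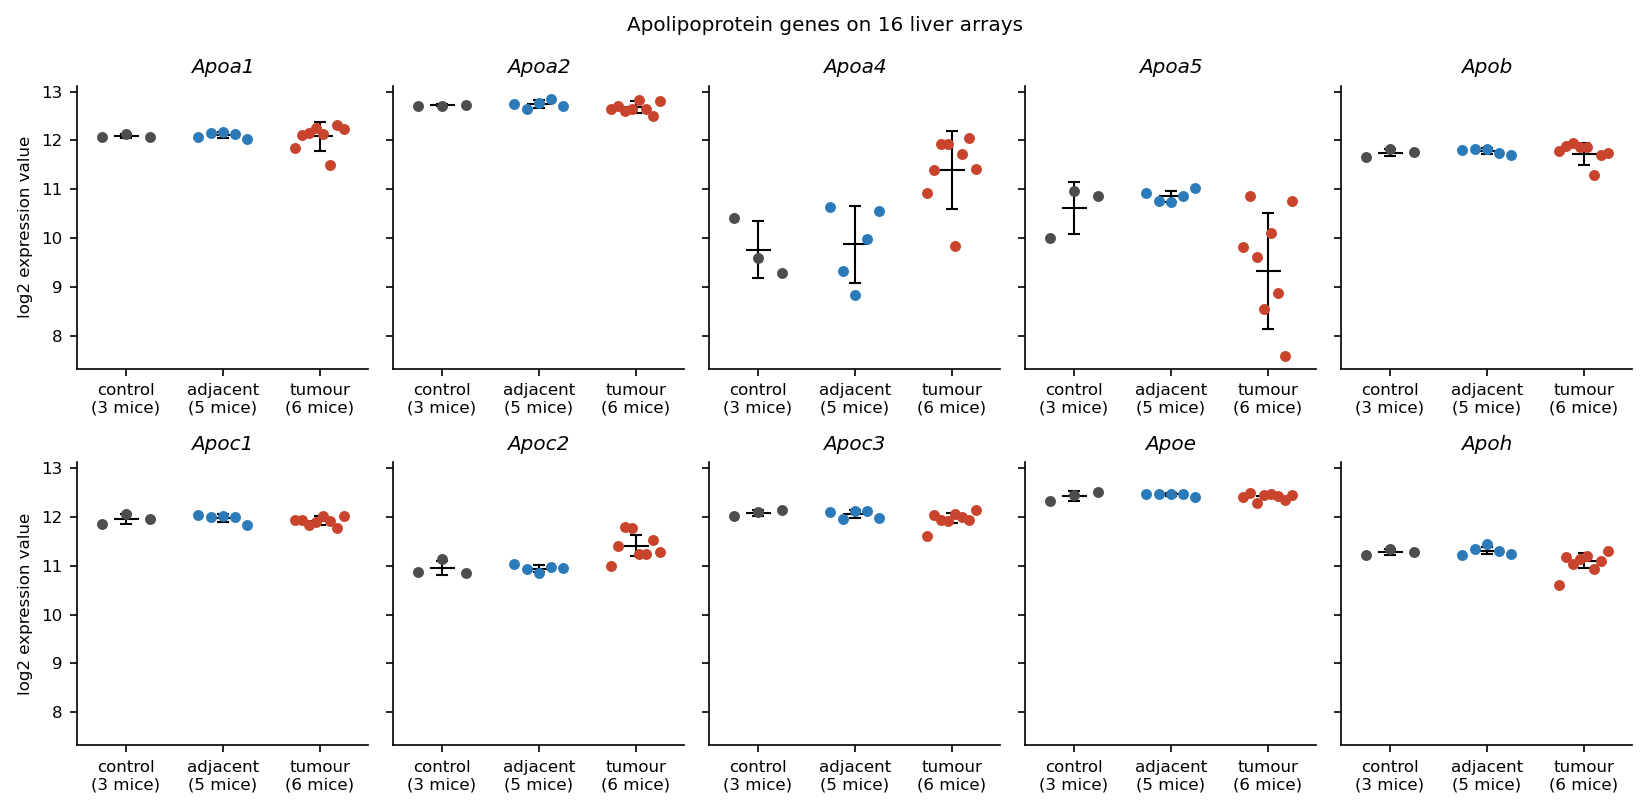
Log2 expression value (vertical axis) of each apolipoprotein gene on each array, by group; points are arrays (3 control, 5 adjacent, 8 tumour) and the black bars are mean ± SD over mice. Apoa4 lies between 9.84 and 12.04 in tumours and Apoa5 between 7.59 and 10.86, whereas Apoa2 and Apoe stay within 0.35 and 0.23 over all 16 arrays.

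Apoc2, the lipoprotein lipase cofactor (Entrez gene 11813), separated tumours from liver most cleanly. Its log2 value in control mice 10, 11 and 12 was 10.88, 11.13 and 10.84. In adjacent liver of mice 121, 123, 124, 1931 and 81 it was 11.03, 10.94, 10.84, 10.97 and 10.95. In tumours of mice 123, 124, 81, 90 and 93 it was 11.78, 11.23, 11.24, 11.52 and 11.29, and in the 3 tumours of mouse 121 it was 11.79 (unnumbered), 10.99 (tumour 2) and 11.41 (tumour 3). Over mice the tumour and adjacent groups did not overlap, which held for 1 of the 10 genes and for 2.23% of all genes, while tumour 2 of mouse 121 by itself lay within the range of adjacent liver. The means were 11.41 ± 0.21 (SD, n = 6) in tumours and 10.94 ± 0.07 (SD, n = 5) in adjacent liver, a 1.38-fold difference (log2 0.47, SE 0.11, 95% interval 0.23 to 0.7; limma adjusted p = 0.076). The call depended on the setting. It passed without tumour 93 (adjusted p = 0.0367) and after a filter on low values (0.0497), and over the other omissions and settings it did not.

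Apoa4 (Entrez gene 11808) had the largest positive difference of the 10. Its log2 value was 10.41, 9.59 and 9.28 in control mice 10, 11 and 12. In adjacent liver of mice 121, 123, 124, 1931 and 81 it was 10.64, 9.32, 8.83, 9.98 and 10.56. In tumours of mice 123, 124, 81, 90 and 93 it was 11.93, 9.84, 11.73, 12.04 and 11.42, and in mouse 121 it was 11.93 (unnumbered), 10.93 (tumour 2) and 11.39 (tumour 3). Every tumour array but that of mouse 124 lay above every liver without tumour. The means were 11.4 ± 0.8 (SD, n = 6) and 9.87 ± 0.79 (SD, n = 5), a 2.89-fold difference (log2 1.53, SE 0.41, 95% interval 0.66 to 2.4; limma adjusted p = 0.0984). Without tumour 124 the difference was 1.84 (adjusted p = 0.0459), the only omission of a mouse that brought it past the threshold. Adjacent liver was itself spread, over 1.81 log2 units, and the animals differed: adjacent liver 124 had the lowest value of all arrays and tumour 124 the lowest of the tumours.

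Because Apoa4 is foremost a gene of the gut, enterocyte markers were read on the same arrays. Of the markers, Sis (2.51 to 2.95), Lct (3.32 to 3.8) and Alpi (3.46 to 4.3) stayed below the array median on every array. Fabp2, which mouse liver also makes, lay between 7.26 and 11.01. Vil1, a brush border protein also found in bile ducts, was at 7.85 in tumour 123 and at 3.45 to 5.05 elsewhere. The mean of these 5 markers was 4.39 to 5.48 in tumours, 4.69 to 5.05 in adjacent liver and 4.53 to 4.86 in control. None of them had a tumour-adjacent difference with an unadjusted p under 0.05. Of the 5 markers 1 had a higher value in tumours, Vil1 (1.14, SE 0.56; limma unadjusted p = 0.0598), with 6 of 6 tumour mice above the adjacent mean. The others were lower, Fabp2 the most (-0.8, SE 0.51). A part of gut-like cells in the Apoa4 values was not tested.

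Apoa5 (Entrez gene 66113), the enhancer of lipolysis, had the largest negative difference. Its log2 value was 9.99, 10.96 and 10.87 in control mice 10, 11 and 12. In adjacent liver of mice 121, 123, 124, 1931 and 81 it was 10.92, 10.75, 10.73, 10.85 and 11.02, an interval of 0.29. In tumours of mice 123, 124, 81, 90 and 93 it was 8.54, 10.1, 8.88, 7.59 and 10.76, and in mouse 121 it was 9.61 (unnumbered), 9.82 (tumour 2) and 10.86 (tumour 3). Tumour 93 and tumour 3 of mouse 121 were at the level of adjacent liver, and the other 6 tumours were below it. The means were 9.33 ± 1.19 (SD, n = 6) and 10.85 ± 0.12 (SD, n = 5), a 2.88-fold difference (log2 -1.53, SE 0.45, 95% interval -2.48 to -0.57; limma adjusted p = 0.127). Without tumour 93 it was -1.81 (adjusted p = 0.0299). The fit gives both groups 1 variance, although the SD in tumours was far above that in adjacent liver.

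**Figure D2:**
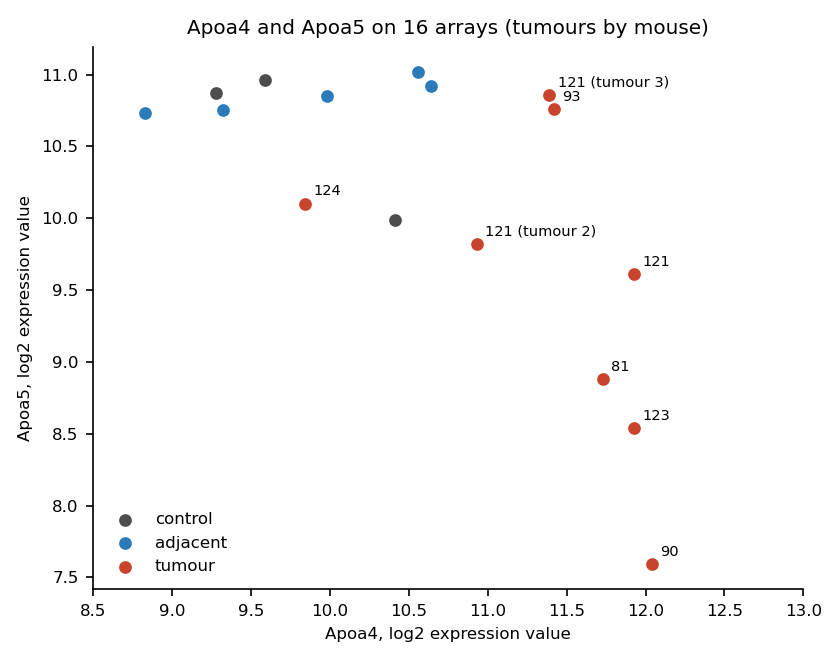
Apoa4 (horizontal axis) against Apoa5 (vertical axis), log2 expression values, 1 point per array, tumours marked by mouse. Control and adjacent livers lie at 10.73 to 11.02 for Apoa5 except control 10 at 9.99, and the tumour with the highest Apoa4 (mouse 90, 12.04) has the lowest Apoa5 (7.59).

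Set side by side, these 2 neighbouring genes did not order the tumours identically. Tumour 90 had the highest Apoa4 and the lowest Apoa5, and tumours 123 and 81 were likewise high and low. Tumour 93 and tumour 3 of mouse 121 had Apoa4 above all livers, at 11.42 and 11.39, with Apoa5 at the level of liver. Tumour 124 had Apoa4 within the range of liver, with Apoa5 at 10.1, below every adjacent liver. In control 10, the array highest in macrophage and neutrophil markers, Apoa4 was the highest and Apoa5 the lowest of the 3 controls. Markers of sinusoidal endothelium, taken as a mean, split the tumours in the same way, which is not shown here for each marker. Their mean over 4 genes was 6.0, 5.97, 6.27 and 5.32 in tumours 90, 121 (unnumbered), 123 and 81, the 4 with the highest Apoa4 and the lowest Apoa5. It was 7.27 to 7.42 in the other 4 tumours, 7.0 to 7.37 in adjacent liver and 7.07 to 7.54 in control. Within this list Clec4g was at 3.98 to 5.41 in those 4 tumours and at 7.46 to 8.52 in the other 4. The split was not particular to endothelium: Col1a1, a stellate cell marker, was at 6.62 to 7.78 and 5.16 to 6.1. The mean over the 4 stellate cell markers overlapped, at 5.64 to 6.06 and 5.31 to 6.09. The endothelium list and Col1a1 were picked after their values were seen. Clec4g (-2.41, SE 0.68) and Stab2 (-1.31, SE 0.39) had lower means in tumours than in adjacent liver, Lyve1 was at -0.1 (SE 0.35) and Pecam1 at 1.03 (SE 0.26), none past the threshold. Clec4f, a Kupffer cell marker, was at 4.17 to 4.36 in those 4 tumours and at 6.21 to 7.73 in the other 4. In control 10 it was at 9.37. Cd5l split the tumours likewise, at 3.27 to 5.15 in those 4 and 5.56 to 7.37 in the other 4. Cd68 went mostly the other way, at 8.06 to 9.24 and 7.12 to 8.28. Adgre1 overlapped, at 5.55 to 7.68 and 6.02 to 6.94. The mean over the 6 macrophage markers was 5.19 to 5.94 and 5.95 to 7.06. The part that cell composition has in the Apoa4 and Apoa5 values was not tested.

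Apoh (Entrez gene 11818) was lower in tumours by a small amount. Control mice lay at 11.22 to 11.35 and adjacent livers at 11.22 to 11.44. The tumours ranged from 10.61 (tumour 2 of mouse 121) to 11.31 (mouse 93), with a median of 11.12 over the 8 arrays. The means of 11.1 ± 0.15 (SD, n = 6) and 11.31 ± 0.08 (SD, n = 5) differed by -0.21 (SE 0.09; limma adjusted p = 0.281), and the groups overlapped.

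In the 4 mice that gave both tissues, the tumour could be set against the liver of the same animal. These pairs reuse arrays of the first comparison, and the 4 genes given here had its largest differences, so they are not separate support. How many of all genes went 1 way in 4 of 4 mice was not counted. Apoa4 was higher in the tumour of 4 of 4 mice, by 0.78 (mouse 121), 2.61 (mouse 123), 1.02 (mouse 124) and 1.17 (mouse 81). Apoc2 was higher in 4 of 4, by 0.37, 0.84, 0.39 and 0.3 in the same order. Apoa5 was lower in 4 of 4, with differences of -0.83, -2.21, -0.63 and -2.14, and Apoh was lower in 4 of 4, with differences of -0.29, -0.2, -0.23 and -0.32. The tumour of mouse 123 had the largest difference of these mice in Apoa4, Apoc2 and Apoa5. Among these 4 genes the Apoh differences were the most even, at -0.26 ± 0.05 (SD, n = 4). Tumour 124, the low outlier for Apoa4, was still above its own adjacent liver.

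**Figure D3:**
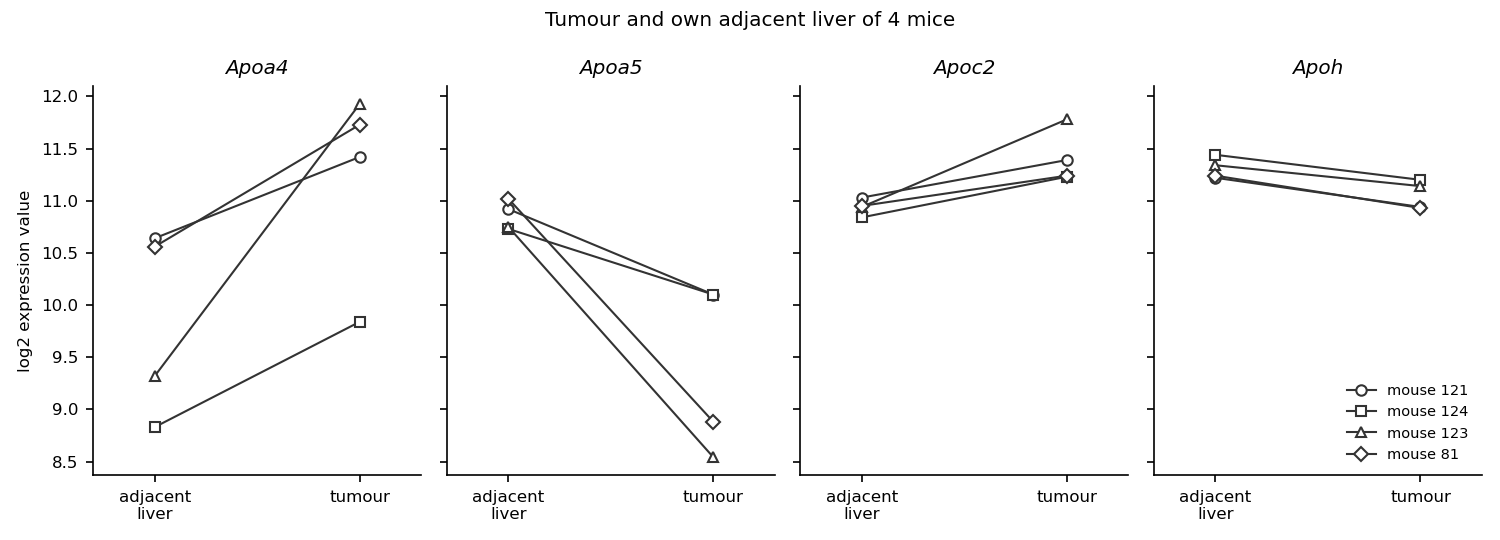
Log2 expression values (vertical axis) of adjacent liver and tumour joined by mouse, for 4 genes and 4 mice; the value of mouse 121 is the mean of its 3 tumours. All 4 lines go up for Apoa4 and Apoc2 and down for Apoa5 and Apoh.

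The structural proteins of lipoproteins were nearly flat. Apob (Entrez gene 238055) averaged 11.75 ± 0.08 (SD, n = 3), 11.78 ± 0.06 (SD, n = 5) and 11.72 ± 0.23 (SD, n = 6) in control, adjacent and tumour mice. Apoa1 (Entrez gene 11806) was at 12.09 ± 0.04 (SD, n = 3), 12.11 ± 0.06 (SD, n = 5) and 12.08 ± 0.3 (SD, n = 6). Tumour 81 was the exception in both genes. There Apob was 11.29 and Apoa1 11.5, against 11.69 to 11.95 and 11.84 to 12.31 on the other 7 tumour arrays. On the same array Fabp2 was at its lowest, 7.26, the mean of 5 hepatocyte markers was 12.06, the lowest of the 16, and Alb was 11.89 against 12.33 to 12.58 elsewhere. Without tumour 81 the tumour-adjacent difference was 0.09 for Apoa1 and 0.03 for Apob, in place of -0.03 (SE 0.13) and -0.06 (SE 0.11).

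Apoa2 (Entrez gene 11807), the other main protein of high density lipoproteins, was at 12.72 ± 0.02 (SD, n = 3), 12.74 ± 0.08 (SD, n = 5) and 12.68 ± 0.12 (SD, n = 6) in control, adjacent liver and tumours. Apoc1 (Entrez gene 11812) ranged only from 11.78 to 12.06 over 16 arrays, and Apoc3 (Entrez gene 11814) from 11.61 to 12.14, with tumour 2 of mouse 121 the lowest. Apoe (Entrez gene 11816) ranged from 12.28 to 12.51, the narrowest of the 10. Its tumour-adjacent difference was -0.03 (95% interval -0.18 to 0.11). For Apoa2, Apoc1 and Apoc3 the differences were -0.06, -0.06 and -0.07, with intervals of -0.23 to 0.11, -0.23 to 0.11 and -0.24 to 0.1. These intervals hold on the deposited scale, and bright probe sets can be compressed on it.

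Several of these genes sat near the top of the scale. Apoa2, Apoc1, Apoc3 and Apoe were among the 50 highest of 23279 genes on every array, and Apoa1 and Apob on 15 of 16. Apoa2 was at rank 1 to 4 and at most 0.13 below the highest value of its array, Apoe at most 0.44 below and Apoc1 at most 0.89 below. Genes with a mean of 12 or more varied less between tumours than dimmer genes: the median SD over 6 tumour mice was 0.16 for the 15 genes from 12 to 13, 0.3 for the 87 genes from 11 to 12 and 0.34 for the 241 genes from 10 to 11. Those 15 include Apoa1, Apoa2, Apoc3 and Apoe themselves. Apoe, with an SD of 0.04, had the smallest of the 15, while Apoa1, with an SD of 0.3, was above 13 of them. The sources used here hold no saturation flags, so how far a flat value reflects a flat transcript was not tested.

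**Figure D4:**
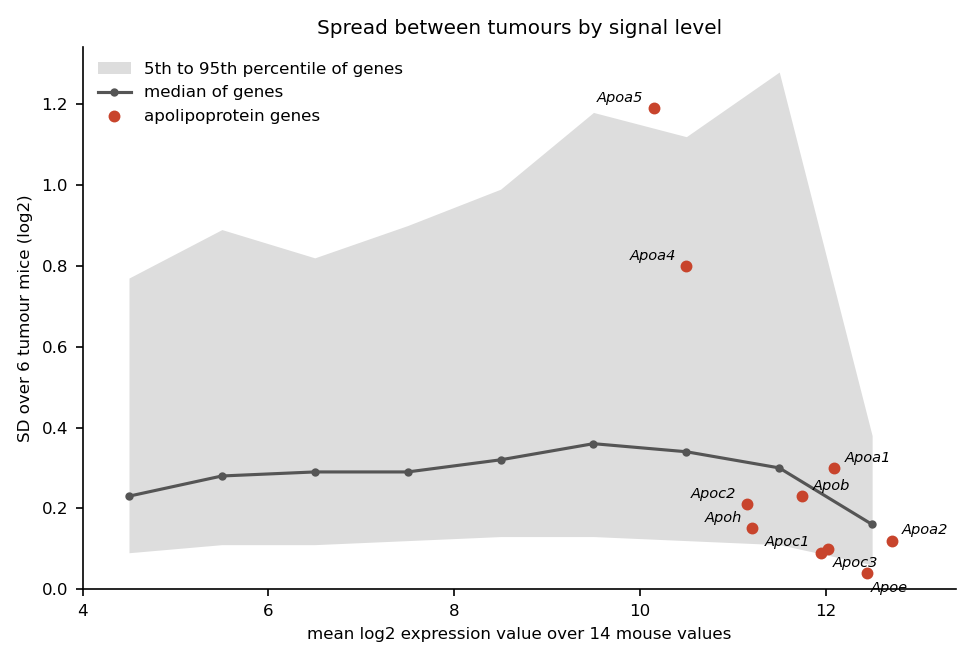
SD over 6 tumour mice (vertical axis, log2) against the mean log2 expression value over 14 mouse values (horizontal axis); the line is the median and the band the 5th to 95th percentile of all genes in steps of 1 log2 unit, and red points are the 10 apolipoprotein genes. Apoa5 (1.19) and Apoa4 (0.8) lie well above the median of 0.34 at their level, and the median falls to 0.16 for genes above 12.

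Among the 4 genes with the largest differences, those dimmer by the mean over 14 mouse values had the larger differences and tumour SDs. That mean is itself shifted by the tumour values. Within tumours Apoa4 averaged 11.4, beside 11.41 for Apoc2 and 11.1 for Apoh, so the order by brightness did not hold there. The part of the signal level in these differences and SDs was not tested. Apoc2 and Apoh, with means of 11.15 and 11.21, had tumour SDs of 0.21 and 0.15, below the median of 0.3 for their level. Apoa5 had an SD larger than 229 of the 241 genes at its level and Apoa4 larger than 215. At its brightest Apoa4 reached rank 16 and came within 0.59 of the array maximum, where a difference can be understated.

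The second comparison set adjacent liver of deleted mice against control liver. None of the 10 genes differed by more than 0.25, and 0 of 10 were called, as were 0 of 23279 genes (0%; 1059 genes had an unadjusted p under 0.05, and 0 of the 10). Groups without overlap made up 4.22% of all genes and 0 of the 10. Apoa5 had the largest difference, 0.24 (SE 0.54; limma adjusted p = 0.999), and it was -0.06 without control 10. For Apoa4 it was 0.11 (SE 0.49), with an interval of -0.94 to 1.15; without control 10 it was 0.43. The other 8 lay between -0.03 and 0.03.

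The third comparison set tumours against control liver and shares its tumours with the first comparison and its controls with the second. The values ran the same way: Apoa4 was at 1.64 (SE 0.47; limma adjusted p = 0.173; 1.96 without control 10), Apoc2 at 0.46 (SE 0.13; 0.153; 0.43 without control 10) and Apoa5 at -1.28 (SE 0.52; 0.327). None of the 10 was called, where 6 of 23279 genes were (0.0258%). Apoc2 was the 1 gene of the 10 without overlap, against 5.18% of all genes. The Apoa5 groups overlapped through control 10; without that mouse the difference was -1.59. Apoh was at -0.18 (SE 0.11), and the other 6 lay between -0.1 and 0.

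**Figure D5:**
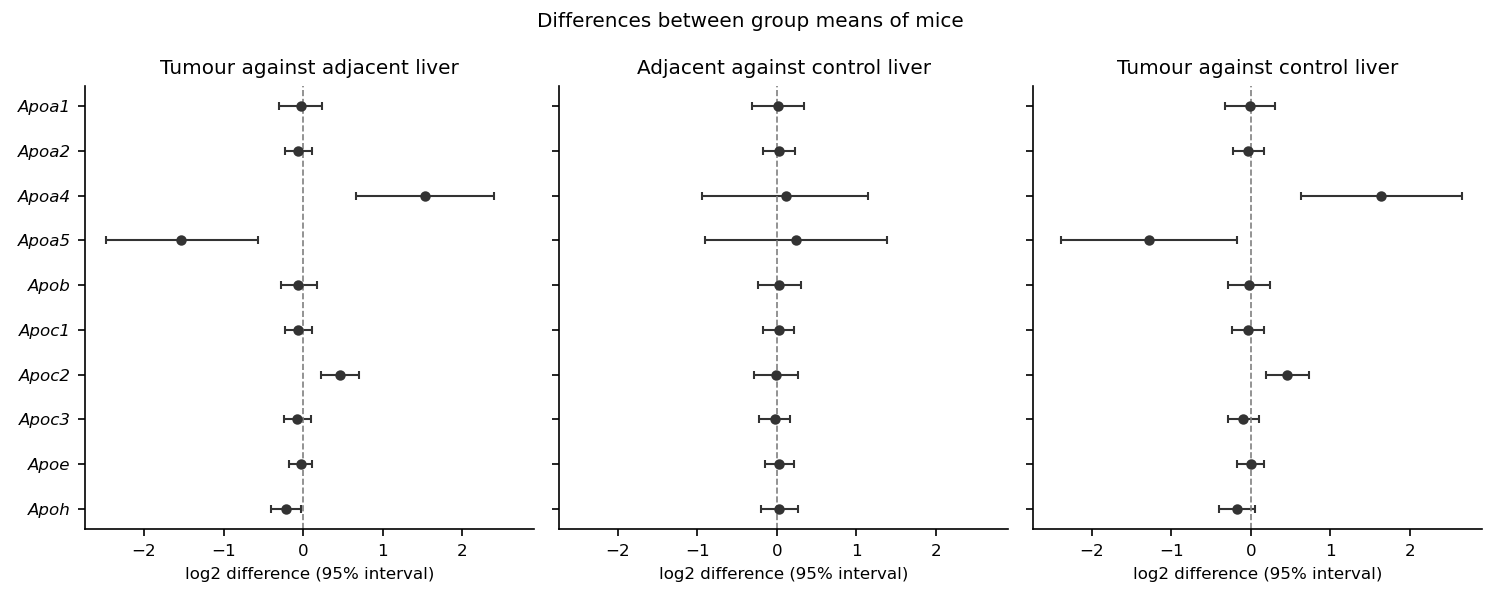
Difference of group means (log2, horizontal axis) with its 95% interval from the limma fit for each apolipoprotein gene, in 3 comparisons. The intervals of Apoa4, Apoa5 and Apoc2 leave out 0 in both tumour comparisons, and 10 of 10 intervals span 0 between adjacent and control liver; intervals are not adjusted for the number of genes.

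Genes that work with apolipoproteins were read from 6 lists, of which 66 entries had values. In the first comparison 0 of the 66 passed over all genes. Other apolipoproteins and related genes had a median of -0.13 over 17 members, beside -0.03 over all genes. Apom, a protein of high density lipoproteins that carries sphingosine phosphate, was at 0.27 (SE 0.45), and Apof at -0.13 (SE 0.09). Assembly and secretion genes had a median of -0.09 over 10 members, with Mttp, which loads lipid onto Apob, at -0.17 (SE 0.16) and P4hb, its partner subunit, at 0.11 (SE 0.1).

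Receptor genes had a median of 0.2 over 9 members. Lrp1, a remnant receptor that binds Apoe, averaged 8.8 ± 0.24 (SD, n = 6) over tumours and 9.45 ± 0.14 (SD, n = 5) over adjacent livers, a difference of -0.65 (SE 0.14; limma adjusted p = 0.0691). The Lrp1 groups did not overlap over mice. Lrp1 passed under 4 of 10 other settings and without tumour 93 (limma adjusted p = 0.0294). Over all 10 settings the limma adjusted p ran from 0.0446 to 0.165. Scarb1, the receptor that takes cholesterol from high density lipoproteins, was at 0.6 (SE 0.3).

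Of the genes of plasma remodelling, Lpl, lipoprotein lipase itself, which adult hepatocytes make little of, averaged 9.52 ± 0.87 (SD, n = 6) over tumours, and adjacent liver averaged 6.77 ± 1.53 (SD, n = 5), a 6.74-fold difference (log2 2.75, SE 0.66; limma adjusted p = 0.0825). Tumour arrays lay between 8.58 and 10.91, and the lowest of them was below adjacent liver 121 at 8.71. A random block for the mouse brought it past the threshold (0.0439), as did leaving out tumour 93 (0.0419). Lcat, which esterifies cholesterol on Apoa1 particles, was at -0.51 (SE 0.17; 0.171), and this list of 10 had a median of -0.39. Tumour 90 had the highest Lpl (10.91) and Apoa4 (12.04) and the lowest Apoa5 (7.59).

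The 4 efflux transporters had a median of 0.34, with Abca1 at 0.14 (SE 0.14) and Abcg1 at 0.59 (SE 0.24). Of 16 transcription factors known to act on apolipoprotein genes 15 had lower values in tumours (median -0.42, beside -0.03 over all genes; 0 called). At an unadjusted p under 0.05 there were 5 of 16, where all genes had 15.3%, and the 15 include Rora and Nr1h3, whose differences were within 0.01 of 0. Hnf4a, a main activator of these genes in hepatocytes, was at -0.08 (SE 0.13) and Foxa1 at -0.41 (SE 0.25). Between adjacent and control liver the 6 lists had medians from -0.08 to 0.15, and between tumour and control liver from -0.28 to 0.47, with 0 members called in either.

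Macrophage markers were read beside Apoe, which macrophages also make. Clec4f, the Kupffer cell marker, was at 5.33 ± 1.16 (SD, n = 6) in tumours and 7.19 ± 0.73 (SD, n = 5) in adjacent liver (-1.85, SE 0.59; limma adjusted p = 0.15). Of the 6 markers 2 had a higher value in tumours, Cd68 (0.94, SE 0.49) and Adgre1 (0.24, SE 0.53). The other 4 had a lower value, and 0 were called. Their mean ran from 5.19 to 7.06 in tumours, 5.77 to 7.22 in adjacent liver and 5.56 to 8.92 in control. Apoe was at 12.32 in control 10, where the markers were highest, and at 12.45 and 12.51 in the other controls. Their part in Apoe was not tested.

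The genes most like Apoa4 over 14 mouse values were Ly75, an endocytic receptor (Pearson r = 0.907, Spearman rho = 0.925), and Ckap5, a microtubule-binding protein (0.902 and 0.938). Those most like Apoa5 were Gphn, gephyrin (0.973 and 0.859), and Ptprd, a receptor tyrosine phosphatase (0.97 and 0.833). These are the highest values over all genes, so no p is given, and the points share tissue group. Without the 2 mice farthest from the median of Apoa4 (adjacent 124 and tumour 90), r was 0.886 and 0.924. Without those farthest for Apoa5 (tumours 90 and 123), r was 0.935 and 0.907. The other 8 genes varied by less than 1 log2 unit over mice and were not compared.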

How the data were processed

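RNA was Trizol-extracted, amplified with SPIA technology and biotin-labelled, per the labels' protocols. The deposited values are log2 expression values per probe set that the authors normalised; per the submitters' processing notes the tools were RMA and Partek, with no version. The sources used here do not state the chip model, scan batch or build. RMA equalises array distributions and can compress bright probe sets.

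Of 24479 probe sets, 23281 had 1 symbol in the platform annotation, 0 several and 1198 none; for 2 symbols with 2 probe sets the brighter was used. All 3 groups were fitted in limma (3.58.1, R 4.3.3) with an intensity trend on 14 mouse values, without a block. P-values were Benjamini-Hochberg adjusted over 23279 genes, with a threshold of 0.05. Animals are separate mice; adjacent 1931 and tumour 93 were taken as different mice. The fit was tested on simulated data with independent values and 1 SD per gene in all groups. Unequal spread between groups, as for Apoa5, and tissues sharing a mouse were not simulated.

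Mouse numbers pair tumour and adjacent liver of 4 animals (correlations of deviations 0.0349 to 0.0998), and block fits were alternatives. The other alternatives were quantile or median scaling, a filter (above 4.45 on at least 3 arrays, 12787 genes), no trend, array weights, only the 2 groups compared, other handling of mouse 121, and each mouse left out.

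The members and lists were chosen with earlier results of these data known. All 10 members are named; of each list, members past the threshold (at most 4), otherwise the first 2, plus the 2 genes most like a member whose values span at least 1. Fabp2, Vil1, Alb, Clec4f, Cd5l, Cd68, Adgre1, Rora, Nr1h3, Clec4g and Col1a1 were picked from the markers and lists after their values were seen. The sinusoidal endothelium list was likewise picked from the marker lists. Promoters came from RefSeq (GRCm38.p6; 8 of 10 members).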

Additional observations from a re-analysis of the deposited data

Results flagged for a closer look

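In 5 of 20 groups tested, 1 sample stood apart from the rest by Dixon's criterion, which chance meets in about 1 group in 20. The groups are the 10 genes over the same mice, so they are not independent and these shares cannot be set against each other. Apoa4 was 9.84 in tumour 124, against 11.42 to 12.04 in the other 5 tumour mice. Tumour 81 was low for both main structural proteins, with Apoa1 at 11.5 (others 12.03 to 12.31) and Apob at 11.29 (others 11.69 to 11.87). Adjacent liver of the same mouse was low for Apoc1, at 11.83 (others 12 to 12.04), and for Apoe, at 12.4, where the other 4 lay at 12.47.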

How the results depend on the processing

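The differences of Apoa4, Apoa5, Apoc2 and Apoh between tumour and adjacent liver kept their direction under 10 settings and 14 omissions of a mouse, and their calls rest on the threshold. Of the 10 members, 1 (Apoc2) was called after the filter on low values and 0 to 2 when a mouse was left out. The count of all genes, 36 between tumour and adjacent liver, was unstable, and the cause was not tested. It was 87 with 8 separate tumours, 136 with array weights, 16 after median centring, 181 after the filter, 8 with only the 2 groups, 23 after quantile scaling and 157 with the unnumbered tumour of mouse 121. The replicate block gave 206 (random) and 0 (fixed, 4 mice). Leaving out 1 mouse gave 5 to 743, the highest without tumour 93 and 123 without tumour 90; only without adjacent 121 (25) or tumour 124 (43) was it within 1.5 times. The 6 genes between tumour and control became 31, 18, 35, 24 (random replicate block), 3 (no trend) and 33 with separate tumours, centring, the filter, the block, no trend and the unnumbered tumour, and 0 to 242 when a mouse was left out. Between adjacent and control liver it was 0 to 1.

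Values near 0 changed sign. Between tumour and control these were Apoa1 (0.006, unnumbered tumour), Apob (0.01 with separate tumours, 0.007 with the random block, 0.01 after quantile scaling), Apoc1 (0.02) and Apoe (0.02) after quantile scaling. Apoc2 between adjacent and control was 0.02 after centring, and Apom was -0.15 with the fixed block. Leaving out 1 mouse, tumour minus adjacent ranged from -0.07 to 0.09 for Apoa1 and -0.09 to 0.03 for Apob. Tumour minus control ranged from -0.06 to 0.1 for Apoa1, -0.07 to 0.06 for Apob, -0.09 to 0.01 for Apoc1 and -0.06 to 0.04 for Apoe. Adjacent minus control ranged from -0.004 to 0.04 for Apoa1, -0.003 to 0.05 for Apoa2, -0.13 to 0.43 for Apoa4, -0.06 to 0.42 for Apoa5, -0.01 to 0.07 for Apob, -0.03 to 0.07 for Apoc1, -0.06 to 0.08 for Apoc2, -0.06 to 0.002 for Apoc3 and -0.03 to 0.07 for Apoe. The most similar gene changed with the measure, for Apoa4 to Nfkb2 by Spearman (0.938) and Bcl7c over tumours (0.99), and for Apoa5 to Helb (0.938) and Mbl1 (0.998). The number of arrays limits the precision.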

Other observations

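Over all genes, the deviations of adjacent liver 1931 and tumour 93 from their group means correlated at 0.317, the highest of 30 pairs of an adjacent and a tumour mouse. Pairs from the same mouse were at 0.0349 to 0.0998. The labels give these samples different numbers, and they were treated as different mice.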
